A study of Mus musculus with 12 samples.

Results

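The comparison described here sets untreated Sirt2-/- mouse embryonic fibroblasts against untreated Sirt2+/+ mouse embryonic fibroblasts, before any interferon was added. The members are the arrays titled untreated Sirt2-/- 1, 2 and 3 and untreated Sirt2+/+ 1, 2 and 3, which are 6 of the 12 samples of the series. Embryonic fibroblasts are connective tissue cells grown out of mouse embryos. The other 6 arrays, 3 of each genotype, held cells kept for 4 h in mouse interferon beta at 2500 IU/ml, and they serve below as arrays in which the same genotype difference can be read again. Each sample had its own single-colour Illumina bead array, hybridised with biotin-labelled RNA. The labels give no other allele, no strain, no embryo or litter, no passage and no information on immortalisation. Nothing in them tells separate cultures from repeat samples within a group, so p-values here measure only the spread between these samples, which may be technical.

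SIRT2 is a deacetylase that consumes NAD and acts mostly in the cytoplasm, on tubulin among other proteins. Embryonic fibroblasts make collagens and other matrix proteins. They keep a record of the body region they came from in their HOX genes and other patterning factors, and they secrete growth factors and blockers of BMP and WNT signals. In culture they can raise the CDK inhibitors encoded at the Cdkn2a and Cdkn2b locus, which brake the cell cycle, while p53 drives its own set of targets such as Cdkn1a and Mdm2. Type I interferon signals through a receptor, JAK kinases and transcription factors of the STAT and IRF families, which bind response elements in the promoters of antiviral genes. In untreated fibroblasts these antiviral genes are usually low.

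Values below are log2 intensities after background correction and quantile normalisation, and differences are knockout minus wild type on that log2 scale, with their standard error from limma (n = 3 arrays per group). Probes entered the comparison if the 3 arrays of at least 1 genotype all detected them at p under 0.05. This left 17200 of 45281 probes, or 11731 genes, of which 717 passed through the knockout arrays alone and 729 through the wild-type arrays alone. Genes of these last kinds entered because one genotype was high enough. Their direction thus came largely with the filter, and the counts below, which include them, are descriptions. A gene is called where its Benjamini-Hochberg adjusted p is under 0.05 and its difference is at least 2-fold. Of all tested genes, 572 were called higher in the knockout (4.88%) and 938 lower (8.0%). These shares are the background for every count of called list members below. Without the fold limit 3105 were higher (26.5%) and 2826 lower (24.1%), together 50.6%, around a median difference of 0.05 over all genes. Differences of at least 16-fold numbered 20 upward and 30 downward. The 3 arrays of one genotype lay apart from the 3 of the other for 59.7% of all genes, so a gap between the groups is common here. In bulk samples like these, fewer cells of a type and less RNA per cell cannot be told apart.

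**Figure D1:**
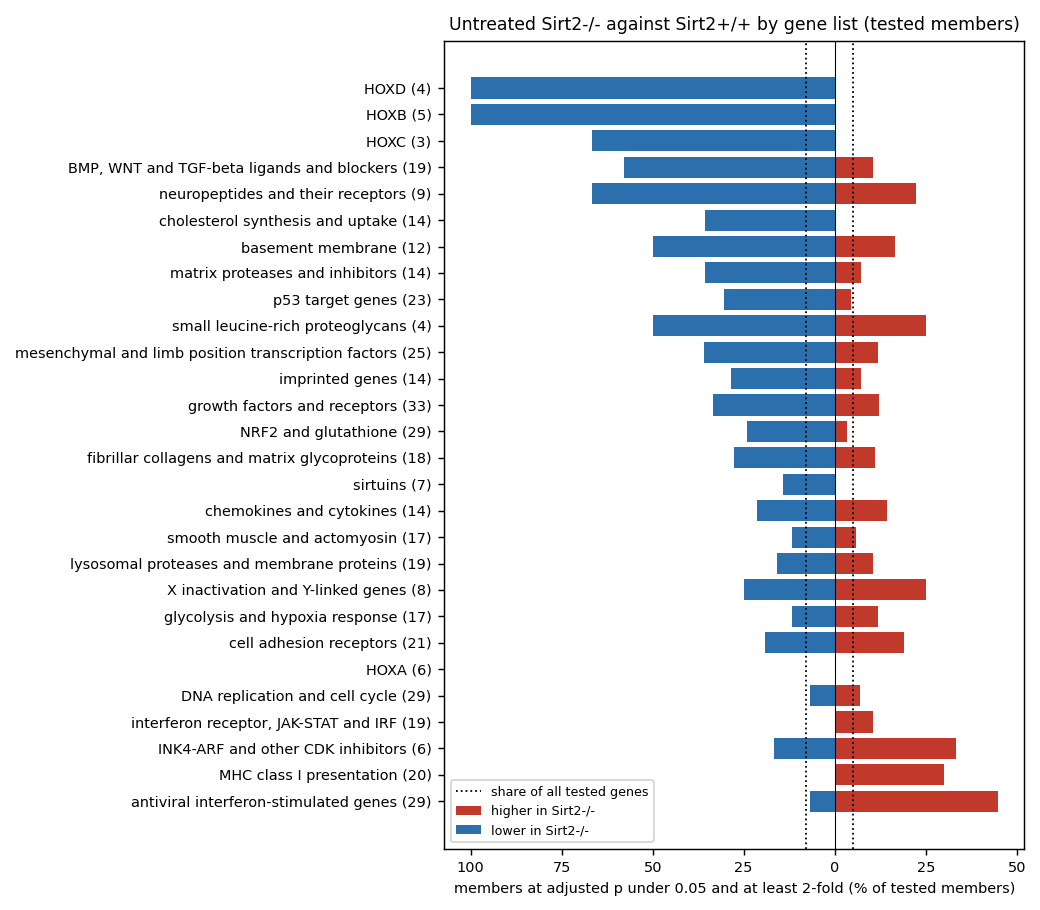
Share of the tested members of each gene list that were called higher (red, to the right) or lower (blue, to the left) in untreated Sirt2-/- arrays, in percent, with the number tested in brackets and dotted lines at the share over all tested genes. HOXB, HOXC and HOXD members were called lower, and 13 of 29 antiviral genes were called higher.

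The targeted gene was lower in every knockout array. Sirt2 had a log2 level of 6.04, 6.66 and 6.61 on knockout arrays 1, 2 and 3 and of 8.72, 8.89 and 8.94 on the wild-type arrays. The groups were far apart and the probe was detected on all 6 arrays. The log2 difference was −2.41 ± 0.17 (adjusted p = 7.72e-06). In the deposited intensities the probe read 164, 195 and 190 in the knockout and 551, 580 and 580 in wild type, with detection p-values of 0. The sources used here do not say where this probe lies relative to the deletion. The other 6 sirtuins held no called member. Sirt3, a mitochondrial deacetylase, stood lower at −0.61 ± 0.15 (adjusted p = 0.00849), and Sirt1, the nuclear deacetylase, stood at −0.47 ± 0.18 (adjusted p = 0.0568). Among 19 tested genes near Sirt2 on its chromosome, 0 were called and the median log2 difference was −0.14; at any size, 1 was higher and 5 were lower, and without knockout arrays 2 and 3 there was 1 called lower.

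Some facts about the samples bear on all that follows. Each of the 6 arrays detected between 17558 and 17836 probes. Knockout arrays 2 and 3 correlated with each other at Pearson's r = 0.996 across probes, and with array 1 at 0.9935 and 0.9926. A set of 31 genes expressed in wild type and near background in treated knockout arrays had median log2 levels of 4.57, 6.40 and 6.0 on untreated knockout arrays 1, 2 and 3, against 9.81 to 9.82 in wild type. On treated knockout arrays 1, 2 and 3 the medians of these 31 genes were 4.65, 5.47 and 5.24, with 7, 20 and 22 of them detected, so array 1 was the lowest there too. A set of 19 interferon-induced genes had medians of 5.42, 7.57 and 8.02 on the same 3 knockout arrays and of 4.92, 5.40 and 5.18 in wild type. Arrays 2 and 3 were thus higher than array 1 in both sets. Both sets were chosen on the treated arrays and the untreated wild-type arrays, after earlier results of these data were known. That choice bounded the levels on those arrays, and only the untreated knockout arrays had no part in it. Where it matters, values are also given without knockout arrays 2 and 3, from a fit of the 10 other arrays in which the lone knockout array is assumed to vary like the other groups. That fit called 666 genes higher (5.68%) and 1035 lower (8.82%), among them 519 and 887 of those called with all arrays.

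The fibroblast identity of the cells was checked against 18 markers. Of these, 17 were tested, 0 were called higher and 6 lower, and Lum was at background on all 6 arrays. Col1a1, the main chain of type I collagen, had log2 levels of 11.86, 11.67 and 11.82 in the knockout and 11.84, 11.36 and 10.89 in wild type, which overlapped. Dcn, Thy1, Col3a1, Pdgfra, Fbln1 and Postn were the lower ones. The summed marker intensity ran from 35196 to 36136 over the knockout arrays and from 49357 to 56224 over the wild-type arrays. Of 11 macrophage and blood markers, 10, with Ptprc, Csf1r and Adgre1 among them, were at background on all 6 arrays. Endothelial markers were at background for 6 of 10, with Pecam1 and Kdr among them, and epithelial markers for 5 of 10, with Epcam among them. The keratins Krt18 and Krt19, however, were present in wild type and lower in the knockout, by log2 differences of −3.90 ± 0.33 and −2.10 ± 0.15. Of the 4 tested epithelial markers these 2 were called lower and 0 higher, and 1 was higher at any size. Of the 4, 2 passed the filter through wild type alone and 1 through the knockout alone. Summed epithelial intensity was 294 to 320 in the knockout and 883 to 1162 in wild type. Summed endothelial intensity was 814 to 882 against 511 to 650, and summed mesothelial intensity 337 to 393 against 124 to 147. The mesothelial sum came with the marker Msln, higher by a log2 difference of 2.16 ± 0.13. The other 3 of 4 mesothelial markers on the array, Upk3b, Lrrn4 and Upk1b, were at background on all 6 arrays. The part of other cell types in the results was not tested.

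Genes of sex chromosomes differed between the groups as well. Xist, the RNA that silences an X chromosome in cells with a pair of them, had log2 levels of 4.27, 6.85 and 6.07 in the knockout and 10.32, 9.81 and 9.90 in wild type. It was not detected on knockout array 1 and was well below every wild-type array on arrays 2 and 3. The log2 difference was −4.28 ± 0.53 (adjusted p = 0.000194), and at least 34-fold lower without arrays 2 and 3. The 3 other kept probes of Xist gave −4.91, −3.04 and −2.23. Eif2s3y, a translation factor gene on the Y chromosome, had 9.39, 9.60 and 9.70 in the knockout against 4.43, 4.34 and 4.44 in wild type. It was not well above background in any wild-type array and was at least 24.8-fold higher in the knockout (adjusted p = 4.80e-08). Kdm5d, a Y-linked histone demethylase gene, was at least 2.63-fold higher, and Kdm6a, an X-linked one that escapes silencing, had a log2 difference of −1.04 ± 0.11, with its other kept probe at −0.90. Uty, also Y-linked, was low in both groups (−0.05 ± 0.16). The genotypes thus differed in sex-chromosome transcripts, and in this design an effect of genotype and one of sex cannot be told apart.

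The INK4 cell cycle brakes were higher and most p53 targets lower. The list of CDK inhibitors has 6 tested members, 2 of them through the knockout arrays alone, and 2 were called higher and 1 lower. Cdkn2a, which encodes p16INK4A and p19ARF, had log2 levels of 11.76, 11.76 and 11.55 on the knockout arrays and 4.39, 4.63 and 4.33 in wild type. Every wild-type array was at background. The knockout was at least 108-fold higher (adjusted p = 8.40e-09), and the 2 other kept probes of the gene gave log2 differences of 6.20 and 3.80. Cdkn2b, which encodes p15INK4B, had 8.87, 9.04 and 9.15 against 4.70, 5.17 and 4.56. It was detected on 1 wild-type array and differed by a log2 value of 4.21 ± 0.16 (adjusted p = 5.69e-07). In the RefSeq gene order of chromosome 4 these genes lie between Mtap and Dmrta1, both named here after their values were seen. Mtap, an enzyme of methionine salvage, differed by a log2 value of 0.53 ± 0.10 (adjusted p = 0.00246), under the fold limit. Dmrta1, a DM-domain gene on the other side, had 4.32, 4.90 and 4.47 in the knockout against 6.26, 6.67 and 6.32 and was at least 2.82-fold lower (adjusted p = 3.43e-05). The direction along this stretch was thus not uniform: Mtap, Cdkn2a and Cdkn2b were higher and Dmrta1 was lower.

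Cdkn1a, the p53 target that encodes p21, had log2 levels of 9.74, 10.43 and 10.11 in the knockout and 12, 11.97 and 11.96 in wild type. Every knockout array lay below every wild-type array, by a log2 difference of −1.88 ± 0.16 (adjusted p = 2.43e-05). Among 23 tested p53 targets, 1 was called higher and 7 lower, and at any size 2 were higher and 16 lower. The median log2 difference of the list was −0.76, against 0.05 over all genes. Between 17 and 19 of the 23 lay below all wild-type arrays on each knockout array, array 1 included, against 35.5% to 35.7% of all tested genes, so the pattern did not follow the split of arrays 2 and 3. Ddit4, an inhibitor of mTORC1 that stress also induces, had 7.90, 8.22 and 8.18 against 10.25, 10.33 and 10.50, a log2 difference of −2.26 ± 0.13 (adjusted p = 2.77e-06). Ccng1, which encodes cyclin G1, differed by −1.57 ± 0.12 and Mdm2, the ligase that removes p53, by −1.41 ± 0.12. The remaining called members, named after their values were seen, were the kinase gene Plk3, the RNA-binding gene Zmat3 and the cell death gene Bbc3, at log2 differences of −1.39, −1.26 and −1.0. Bbc3 lay just past the fold limit, and its other kept probe gave −0.32. The higher one was Plk2, a polo-like kinase gene, at 1.14 ± 0.11 (adjusted p = 4.23e-05). Trp53 itself was not analysed here.

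**Figure D2:**
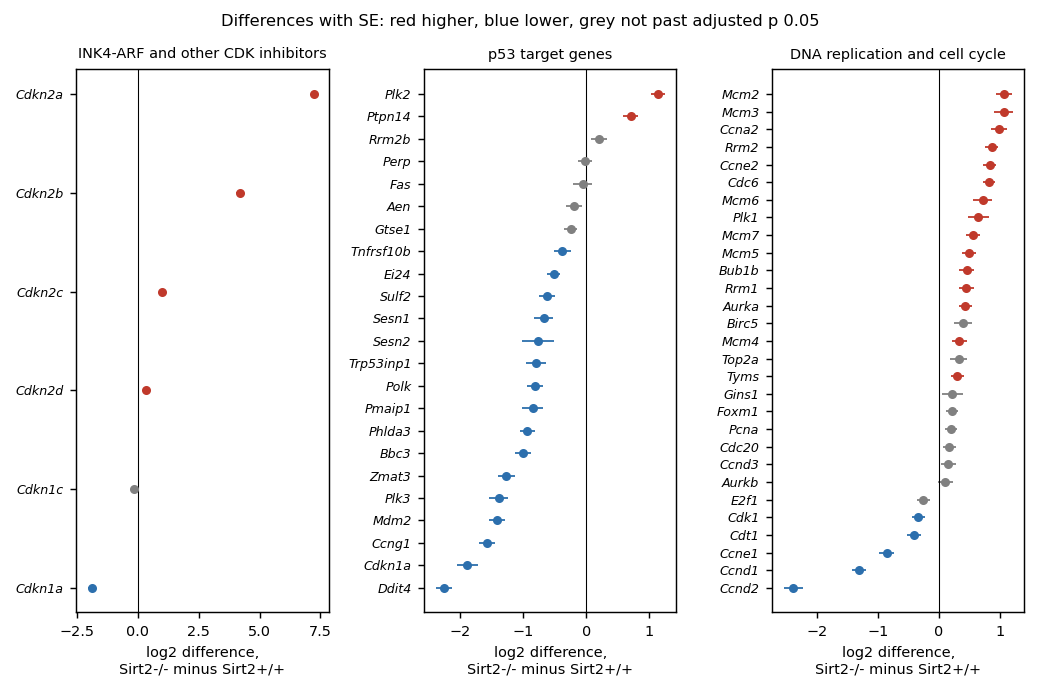
Log2 difference (knockout minus wild type) of each tested CDK inhibitor, p53 target and replication or cell cycle gene, with its standard error; red points are higher and blue points lower at an adjusted p under 0.05, and grey points did not pass. Cdkn2a and Cdkn2b stand far to the right of their list and 16 of 23 p53 targets stand in blue.

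Replication and cell cycle genes differed by small amounts, mostly upward. Of 29 tested members 15 were higher and 5 lower at any size, against 26.5% and 24.1% of all genes, and the median log2 difference was 0.33. Past the fold limit 2 were higher and 2 lower, which is near the background. Mcm2 and Mcm3 encode subunits of the replicative helicase. Mcm2 had log2 levels of 11.57, 11.25 and 11.33 in the knockout against 10.45, 10.15 and 10.36, a log2 difference of 1.07 ± 0.13 (adjusted p = 0.00016). Mcm3 had 10.11, 9.67 and 9.80 against 9.04, 8.65 and 8.71, a log2 difference of 1.06 ± 0.15 (adjusted p = 0.000469). Both lay just past the fold limit: without knockout array 1 the list had 0 members called higher, and without wild-type array 2 it had 1. The D-type cyclins, which pass growth signals to the cell cycle, went the other way. Ccnd2 had 8.91, 9.52 and 9.36 against 11.68, 11.73 and 11.54, a log2 difference of −2.39 ± 0.16 (adjusted p = 6.05e-06), while its other kept probes gave −2.22 and −0.46. Ccnd1 differed by −1.31 ± 0.11 (adjusted p = 2.10e-05). The kinase gene Cdk9, whose product drives transcription elongation, was slightly higher at 0.48 ± 0.13 (adjusted p = 0.0129).

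E2F factors activate replication genes in S phase, and the promoter of Mcm3 is shown because it carries both E2F motifs searched, TTTCCCGC and TTTGGCGC, on either strand. The window runs from 250 bases before to 50 after the RefSeq start (GRCm38.p6, chr1:20820263-20820562, minus strand) and the matches are in capitals.
Mcm3: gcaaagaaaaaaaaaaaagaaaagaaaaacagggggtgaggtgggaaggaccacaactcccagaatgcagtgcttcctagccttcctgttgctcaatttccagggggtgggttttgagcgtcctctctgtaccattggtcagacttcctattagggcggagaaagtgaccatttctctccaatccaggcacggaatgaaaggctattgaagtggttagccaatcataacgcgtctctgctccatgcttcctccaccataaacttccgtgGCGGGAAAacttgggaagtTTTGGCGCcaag
One of these motifs occurred in 6 of the 21 tested replication genes with a promoter in the RefSeq table (28.6%). Over all 27025 genes in that table, tested or not, the share was 1.8%. A match describes the letters and not a bound site.

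The HOX genes divided by cluster. None of the 6 tested HOXA genes on chromosome 6 was called, and 4 were higher at any size. Of the tested genes, 5 of 5 in HOXB on chromosome 11, 2 of 3 in HOXC on chromosome 15 and 4 of 4 in HOXD on chromosome 2 were called lower. HOXB has 10 genes on the array, and HOXC and HOXD have 9 each, so 5, 6 and 5 of them were not tested. Of the called genes, 4 HOXB, 2 HOXC and 1 HOXD genes passed the filter through the wild-type arrays alone. HOX genes encode transcription factors that set position along the body axis and the limbs, and fibroblasts from different sites keep different combinations. The median log2 differences were 0.48 for HOXA, −2.94 for HOXB, −3.97 for HOXC and −2.06 for HOXD.

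Hoxc6 had log2 levels of 4.42, 8.56 and 8.53 on knockout arrays 1, 2 and 3 and of 12.36, 12.28 and 12.46 in wild type. It was at background on array 1 and intermediate on arrays 2 and 3. The log2 difference was −5.20 ± 0.93 (adjusted p = 0.0016). Hoxc9 had 4.44, 7.52 and 6.72 against 10.04, 10.21 and 10.34, and array 1 was again at background. Without arrays 2 and 3 these were at least 174-fold and at least 38.6-fold lower. Hoxc10, by contrast, read 5.18, 5.18 and 4.96 against 5.15, 5.27 and 5.41 and did not pass (adjusted p = 0.252).

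In the HOXB cluster, Hoxb7 had log2 levels of 5.46, 6.42 and 6.52 against 10.04, 10.05 and 10.16, a log2 difference of −3.95 ± 0.25 (adjusted p = 4.66e-06). Hoxb4 was at 4.45, 5.38 and 6.10 against 8.62, 8.42 and 8.5. Hoxb2 was at 4.92, 6.04 and 5.80 against 8.62, 8.40 and 8.57. Hoxb5 was at 4.72, 5.02 and 4.99 against 6.78, 6.54 and 6.64. Array 1 was the lowest of the knockout arrays for these 4 genes and no array overlapped with wild type. In the HOXD cluster, Hoxd8 had 5.55, 6.87 and 6.19 against 9.78, 9.35 and 9.50, a log2 difference of −3.34 ± 0.29 (adjusted p = 2.18e-05). Hoxd9 differed by −2.66 ± 0.19 and Hoxd10 by −1.33 ± 0.15, while Hoxd4 was not well above background in the knockout and at least 2.26-fold lower (adjusted p = 6.16e-05). In the HOXA cluster, Hoxa4 had 6.56, 6.58 and 6.65 against 5.71, 5.94 and 5.36, a log2 difference of 0.92 ± 0.15 (adjusted p = 0.000901), and Hoxa5 overlapped with wild type (−0.20 ± 0.12, adjusted p = 0.206). Hoxa4, Hoxa5 and Hoxc10 are named after their values were seen.

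**Figure D3:**
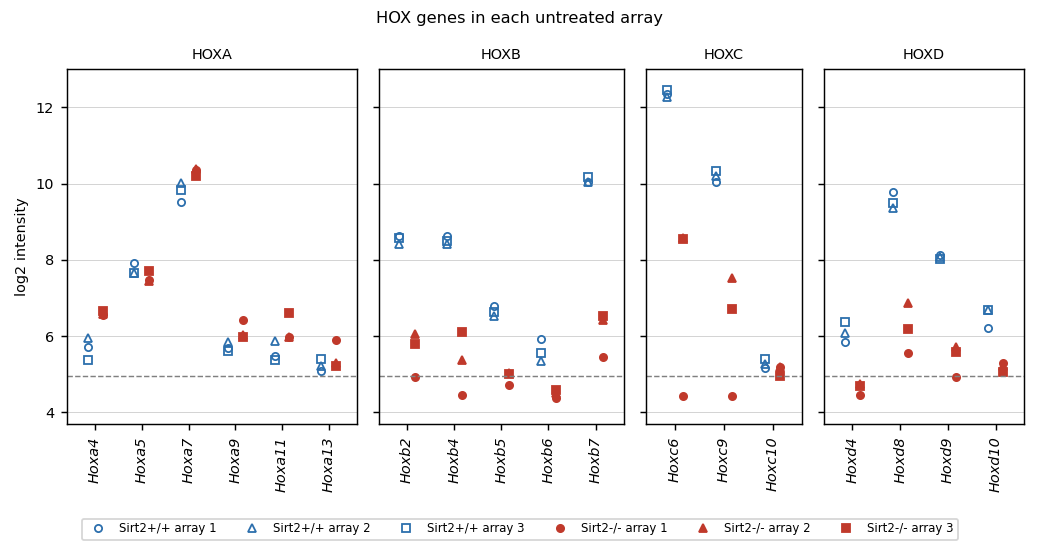
Log2 intensity of each tested HOX gene on every untreated array, wild type in open blue and knockout in filled red symbols; the dashed line is the highest, over the arrays, of each array's lowest signal among detected probes. HOXB, HOXC and HOXD genes other than Hoxc10 sit lower in all 3 knockout arrays, Hoxc6 at 4.42 on array 1 and near 8.5 on arrays 2 and 3.

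Other transcription factors that mark position were mixed, with 9 of 25 tested members called lower and 3 higher. Osr2, a zinc finger factor of limb and palate, had log2 levels of 5.43, 6.05 and 7.09 against 9.58, 9.60 and 9.57, a log2 difference of −3.39 ± 0.34 (adjusted p = 5.30e-05). Sox9, the master regulator of cartilage, had 9.82, 10.36 and 10.19 against 12.46, 12.40 and 12.60, a log2 difference of −2.36 ± 0.15 (adjusted p = 4.88e-06). Meis2, a HOX cofactor, differed by −2.11 ± 0.12. Foxf2, a forkhead factor of mesenchyme, differed by −1.41 ± 0.23. Outside that list, Tbx1, a T-box factor of the pharynx, had 4.38, 4.67 and 5.20 against 9.31, 9.45 and 9.42 and was detected on 1 knockout array. Higher were Msx1 (1.68 ± 0.19), a homeobox factor of growing mesenchyme, Lhx9 (1.64 ± 0.16), a LIM homeobox factor, and Foxp1 (1.34 ± 0.17). Ebf3, an early B-cell factor family member that is also outside the list, had 9.35, 9.13 and 9.16 against 4.76, 4.87 and 4.91 and was at least 19.5-fold higher (adjusted p = 6.86e-08), with a second kept probe at a log2 difference of 2.01. Prrx1, a general marker of limb and trunk mesenchyme, did not differ beyond its spread (0.07 ± 0.10, adjusted p = 0.595). Its 3 knockout arrays overlapped with wild type.

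The genes with the largest higher values included signalling and matrix genes as well as cell cycle brakes. Grb10, an imprinted gene for an adaptor that dampens insulin and IGF receptors, had log2 levels of 12.67, 12.29 and 12.46 in the knockout and 4.41, 5.49 and 4.42 in wild type. It was near the top of the scale in all knockout arrays and was detected on 1 wild-type array. The log2 difference was 7.70 ± 0.27 (adjusted p = 2.87e-07), and the gene's other kept probe gave 1.74. Among the 14 tested imprinted genes 1 was called higher and 4 lower, against 4.88% and 8.0% of all tested genes. Of these 14, 2 passed the filter through the knockout arrays alone, Grb10 among them, and 3 through the wild-type arrays alone. For such genes the direction came largely with the filter. Rasgrf1, an exchange factor for RAS, had 4.94, 6.76 and 5.75 against 9.82, 9.84 and 9.84, a log2 difference of −4.02 ± 0.37 (adjusted p = 3.12e-05). Peg3, a zinc finger gene, had 4.39, 4.63 and 4.44 against 6.98, 6.90 and 7.15 and was at least 4.26-fold lower (adjusted p = 1.27e-06). Impact, a regulator of translation under stress, differed by −2.27 ± 0.14, and Dcn, described with the matrix genes, was the remaining one. Igf2 and Cdkn1c, other imprinted growth genes named after their values were seen, stood at 0.79 and −0.14. Called imprinted members thus went in both directions, with Grb10 the only one upward.

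Other genes with large higher values were alike in all 3 knockout arrays. S100a7a, an S100 calcium-binding protein gene, had log2 levels of 10.78, 10.73 and 10.92 against 6.26, 6.25 and 6.43, a log2 difference of 4.50 ± 0.11 (adjusted p = 6.86e-08). Aqp1, a water channel gene, had 12.32, 12.20 and 12.17 against 7.58, 8.09 and 8.09, a log2 difference of 4.31 ± 0.15 (adjusted p = 2.87e-07). Erfe, which encodes the hormone erythroferrone, had 9.81, 9.59 and 9.53 against 4.62, 5.52 and 4.29, with 1 wild-type array detected. In each of these the knockout arrays lay close together. Hs3st3a1, an enzyme that sulphates heparan chains, differed by 4.47 ± 0.22 and Hspb1, a small heat shock protein gene, by 4.68 ± 0.25, with 1 wild-type array detected for Hspb1. Sox11, a neural and mesenchymal factor named after its values were seen, was at least 13.4-fold higher. The gene 2900026A02Rik was at least 17-fold higher by 1 probe, while its other kept probe gave a log2 difference of 0.65.

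In the list of BMP, WNT and TGF-beta ligands, blockers and targets, 2 of 19 tested members were called higher and 11 lower, and the median log2 difference was −1.22. Of the 19, 3 passed the filter through the wild-type arrays alone and 1 through the knockout arrays alone. Bmp4, a bone morphogenetic protein, had log2 levels of 9.49, 9.22 and 9.36 in the knockout and 4.27, 4.75 and 4.42 in wild type. No wild-type array was above background, and the knockout was at least 21.6-fold higher (adjusted p = 1.56e-07); the gene's other kept probe gave a log2 difference of 1.07. Grem1, a secreted blocker that binds BMP4, had 6.09, 6.42 and 8.24 against 12.40, 11.50 and 11.78. Array 3 was the highest of the knockout arrays and still far below wild type, and the log2 difference was −4.97 ± 0.49 (adjusted p = 5.14e-05). Fst, which encodes the activin blocker follistatin, had 7.42, 8.06 and 8.22 against 11.28, 11.27 and 11.50, a log2 difference of −3.45 ± 0.20 (adjusted p = 2.93e-06). Sfrp1 and Dkk3, from families of secreted WNT inhibitors, differed by −3.65 ± 0.39 and −3.09 ± 0.35, while the related Sfrp2 was higher at 2.04 ± 0.30 (adjusted p = 0.000527). Outside that list and named after their values were seen, the WNT ligand genes Wnt10b and Wnt10a were not well above background in untreated wild type and were at least 6.3-fold and at least 2.65-fold higher.

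The Id genes, which BMP signals induce, are given here after their values were seen. Id4 had log2 levels of 4.67, 6.15 and 5.05 against 8.48, 8.34 and 8.12 and was lower, at −3.02 ± 0.32 (adjusted p = 7.60e-05). Id1 read 11.16, 11.39 and 11.28 against 11.31, 11.28 and 11.18 and overlapped (adjusted p = 0.873). Id2 was higher by 0.56 ± 0.16 (adjusted p = 0.0179), with knockout and wild-type arrays apart, and Id3 lower by −0.27 ± 0.10 (adjusted p = 0.0499). The 4 Id genes therefore did not move together.

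Of 33 tested growth factors and receptors, 11 were called lower and 4 higher. Fgf10 and Fgf7, which signal from mesenchyme to epithelium, were both lower. Fgf10 had log2 levels of 5.18, 6.35 and 6.25 against 9.26, 9.18 and 9.49, a log2 difference of −3.38 ± 0.27 (adjusted p = 1.65e-05), with its other kept probes at −3.29 and −1.26, and Fgf7 differed by −2.02 ± 0.15. Pdgfra, the PDGF receptor that marks many fibroblasts, had 8.18, 8.71 and 8.62 against 10.62, 10.51 and 10.57, a log2 difference of −2.06 ± 0.15 (adjusted p = 8.10e-06). Igfbp4, which binds IGFs, differed by −3.17 ± 0.25. Higher were Ccn1, a matricellular protein gene, at 1.85 ± 0.13, the lymphatic growth factor gene Vegfc at 1.47 ± 0.12, and the receptor genes Egfr at 1.31 ± 0.12 and Fgfr2 at 1.10 ± 0.11. The other kept probes of Egfr gave 1.04, 0.62 and 0.21, and that of Fgfr2 gave 0.62. Dusp4, a phosphatase that switches off MAP kinases, had 4.40, 5.74 and 5.68 against 10.05, 9.99 and 9.74 and was lower by −4.65 ± 0.31 (adjusted p = 6.44e-06), with its other kept probes at −3.53 and −2.05. Array 1 was at background and arrays 2 and 3 were far below wild type.

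In other genes with large lower values array 1 was again the lowest knockout array. Slc14a1, a urea transporter gene, had log2 levels of 4.39, 5.05 and 6.39 against 10.62, 10.31 and 10.43, a log2 difference of −5.18 ± 0.41 (adjusted p = 1.42e-05). Ptgis, which makes prostacyclin, had 4.29, 6.40 and 6.16 against 9.68, 10.15 and 10.29, a log2 difference of −4.42 ± 0.47 (adjusted p = 8.11e-05). In both genes array 1 was not detected and no knockout array reached wild type. Sema5a, a semaphorin guidance gene, differed by −4.65 ± 0.30, Itgbl1, an integrin beta-like gene, by −4.49 ± 0.41, and Dgkk, a diacylglycerol kinase gene on the X chromosome, by −4.46 ± 0.37. Without arrays 2 and 3, Slc14a1 was at least 46.2-fold, Ptgis at least 34.6-fold, Itgbl1 at least 38-fold and Dgkk at least 28.5-fold lower.

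Matrix genes were called in both directions, more often lower. Of 12 tested basement membrane genes 6 were called lower and 2 higher, of 18 fibrillar collagens and glycoproteins 5 lower and 2 higher, and of 14 proteases and inhibitors 5 lower and 1 higher. Col4a1 and Col4a2 encode the chains of the main network-forming collagen. Col4a1 had log2 levels of 10, 10.83 and 10.29 against 13.45, 13.25 and 13.29, a log2 difference of −2.96 ± 0.19 (adjusted p = 5.30e-06). Col4a2 had 8.53, 9.66 and 9.46 against 12.67, 12.58 and 12.56, a log2 difference of −3.38 ± 0.25 (adjusted p = 1.06e-05). Both were lowest on array 1 and clear of wild type on all 3. Col18a1 and the linker Nid1 differed by −2.69 ± 0.16 and −2.16 ± 0.14, whereas the related linker Nid2 was higher, with 8.13, 7.78 and 7.76 against 5.73, 5.94 and 4.98 (2.34 ± 0.23, adjusted p = 5.03e-05). The laminin chain gene Lama5 was not well above background in wild type and at least 2.11-fold higher.

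Among fibrillar and associated matrix genes, Thbs2, a thrombospondin, had log2 levels of 6.81, 8.44 and 7.63 against 11.48, 11.08 and 11.20, a log2 difference of −3.63 ± 0.34 (adjusted p = 3.61e-05). Col3a1, the type III collagen gene, had 4.70, 6.58 and 6.70 against 8.38, 8.61 and 8.36, a log2 difference of −2.46 ± 0.45 (adjusted p = 0.0018). It was not detected on array 1 and was intermediate on arrays 2 and 3. The type I collagen genes Col1a1 (0.42 ± 0.21, adjusted p = 0.125) and Col1a2 (−0.17 ± 0.12, adjusted p = 0.248) did not pass. Col5a2 and Lox, the enzyme that crosslinks collagen, were higher by 1.66 ± 0.15 and 1.23 ± 0.14, with other kept probes of Col5a2 at 0.76 to 1.63. In the small proteoglycans the directions opposed each other. Dcn, which encodes decorin, had 4.81, 6.59 and 4.98 against 9.63, 9.83 and 9.52, a log2 difference of −4.20 ± 0.40 (adjusted p = 4.00e-05), with its other kept probe at −2.28. Ogn, which encodes osteoglycin, had 10.26, 10.21 and 10.11 against 6.90, 6.94 and 6.45, a log2 difference of 3.43 ± 0.14 (adjusted p = 7.66e-07), with its other kept probes at 1.37 and 1.40.

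Called proteases and inhibitors were mostly lower, 5 of 14 tested against 1 higher. At any size 9 of the 14 were lower and 2 higher, against 24.1% and 26.5% of all genes. The median log2 difference was −0.67, and 3 of the 14 passed the filter through wild type alone. The gelatinase gene Mmp2 had log2 levels of 10.31, 9.98 and 9.92 against 8.02, 8.60 and 8.08, a log2 difference of 1.83 ± 0.18 (adjusted p = 4.20e-05), and all knockout arrays were higher. The stromelysin genes Mmp3 and Mmp10 were lower by −2.84 ± 0.18 and −1.85 ± 0.17, and Plat, the tissue plasminogen activator, by −2.21 ± 0.14. Serpinf1, an antiangiogenic secreted serpin, had 9.22, 10.34 and 10.06 against 13.07, 13.03 and 13.10, a log2 difference of −3.19 ± 0.24 (adjusted p = 1.18e-05), while its other kept probe gave −0.11. The lysosomal cathepsins opposed each other. Ctsc had 8.51, 8.0 and 8.10 against 4.51, 4.93 and 4.68 and was higher by 3.49 ± 0.16 (adjusted p = 1.28e-06), with 1 wild-type array detected. Ctsh had 7.72, 8.28 and 7.83 against 11.23, 11.25 and 11.32 and was lower by −3.32 ± 0.15 (adjusted p = 1.14e-06). Ctsk, a collagen-degrading cathepsin of bone, was lower by −3.55 ± 0.26, and Cln3, a lysosomal membrane protein gene, by −3.15 ± 0.25. Ctsz was higher by 1.20 ± 0.18. Of 19 tested lysosomal genes 2 were called higher and 3 lower; without wild-type array 1 there was 1 higher.

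Surface receptors were called in both directions alike. Of 21 adhesion receptors 4 were called higher and 4 lower. Cdh3, which encodes P-cadherin, had log2 levels of 8.71, 8.64 and 8.52 against 4.46, 4.83 and 4.51 and was at least 13-fold higher (adjusted p = 1.72e-07), with its other kept probes at log2 differences of 2.16 and 1.96. Itga11, a collagen receptor subunit, was higher by 3.29 ± 0.23. Ncam1, a neural adhesion molecule, and Cd34, a sialomucin, were higher by 1.17 ± 0.13 and 1.34 ± 0.18, with other kept probes of Ncam1 at 2.33 and 0.85. Thy1, a surface glycoprotein used to sort fibroblasts, had 9.38, 11.15 and 10.43 against 13.39, 13.33 and 13.20, a log2 difference of −2.99 ± 0.36 (adjusted p = 0.00016), again lowest on array 1. Cdh13, which encodes T-cadherin, differed by −1.68 ± 0.12, and the integrin subunits Itga7 and Itga8 by −1.38 ± 0.13 and −1.29 ± 0.22. Of 17 smooth muscle and actomyosin genes 1 was called higher and 2 lower, near the background. They were Tagln (1.71 ± 0.17), an actin-binding protein gene, and Actg2 (−2.71 ± 0.18) and Myl9 (−1.09 ± 0.13), smooth muscle actin and myosin light chain genes.

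Neuropeptide genes held some of the largest lower values. Of 9 tested, 7 passed the filter through wild type alone, and 6 were called lower and 2 higher. Gpr149, an orphan receptor gene, had log2 levels of 4.28, 5.97 and 7.29 against 12.05, 11.60 and 11.96, a log2 difference of −6.02 ± 0.60 (adjusted p = 5.24e-05), with its other kept probe at −1.13. Cck, the cholecystokinin gene, had 4.44, 8.90 and 8.32 against 12.23, 12.31 and 12.26. Vip, a vasodilator peptide gene, had 4.44, 8.47 and 7.58 against 11.63, 11.64 and 11.04. All 3 were at background on knockout array 1 and intermediate on arrays 2 and 3. Without arrays 2 and 3 they were at least 123-fold, 162-fold and 91.4-fold lower. Npr3, a clearance receptor for natriuretic peptides, differed by −3.90 ± 0.21 with 2 knockout arrays detected, and its other kept probes gave −0.99 to −3.15. Penk, the enkephalin precursor gene, was higher by 1.78 ± 0.17 and Edn1, the endothelin gene, by 1.09 ± 0.14; without knockout array 1 the list had 1 member called higher. The proliferin genes Prl2c2, Prl2c3 and Prl2c4 were lower by −4.55, −4.70 and −4.41, but they are near-identical copies, so it is uncertain which of them the probes read.

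Genes of detoxification and sterol synthesis were called mostly lower. Of 29 NRF2 and glutathione genes 7 were called lower and 1 higher. Gstm2 and Gstm1, glutathione transferases, differed by log2 values of −2.56 ± 0.12 and −1.99 ± 0.15, but the other kept probe of Gstm1 gave −0.35. Mgst1, a membrane-bound transferase, had 4.59, 4.66 and 4.59 against 6.83, 6.94 and 6.89 and was at least 3.91-fold lower (adjusted p = 8.59e-07), with its other kept probe at a log2 difference of −0.92. Gpx3, a secreted peroxidase, differed by −2.19 ± 0.20 with 2 knockout arrays detected. Gpx7, a peroxidase of the endoplasmic reticulum, was higher by 1.91 ± 0.13. Of 14 cholesterol genes 5 were called lower and 0 higher, and at any size 11 were lower and 1 higher; without wild-type array 1, or with median scaling, 3 were called lower. Msmo1, a sterol oxidase, had 9.96, 10.54 and 10.27 against 12.30, 12.09 and 11.92, a log2 difference of −1.85 ± 0.16 (adjusted p = 2.81e-05), and Sqle, the squalene epoxidase, differed by −1.28 ± 0.15. Mvd and Lss, further enzymes of the pathway, differed by −1.27 ± 0.16 and −1.07 ± 0.15, and the other kept probe of Lss gave −0.39. Of 17 glycolysis and hypoxia genes 2 were called higher and 2 lower; the higher count was 1 without knockout array 1 or wild-type array 1. Car9, a hypoxia-induced carbonic anhydrase, was at least 2.7-fold higher and Egln3, an oxygen sensor that hypoxia also induces, lower by −2.04 ± 0.14. Pdk1, a kinase that holds back pyruvate oxidation, was higher by 1.08 ± 0.17, and the glucose transporter Slc2a1 lower by −1.10 ± 0.11.

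Antiviral genes made up the list with the most called higher members, and their values came mainly from arrays 2 and 3. Of 29 tested members, 7 of them through the knockout arrays alone, 13 were called higher and 2 lower, with a median log2 difference of 1.17. On knockout arrays 2 and 3 alike, 26 of the 29 lay above all wild-type arrays, with medians of 1.73 and 2.21 above the wild-type mean. On array 1 this held for 14 of 29, with a median of 0.32, while over all genes 43.1% lay above wild type on that array. Without arrays 2 and 3 the list had 5 called higher and 2 lower. Without array 1 it had 21 called higher.

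Ifit3, an antiviral protein induced by interferon, had log2 levels of 5.70, 12.02 and 12.26 on knockout arrays 1, 2 and 3 and of 6.25, 6.34 and 6.61 in wild type. Array 1 lay below wild type and arrays 2 and 3 far above it. The difference did not pass with the 6 arrays (3.59 ± 1.44, adjusted p = 0.0652). It passed without array 1 (5.74, adjusted p = 1.11e-07), with the replicate block (adjusted p = 0.0273), with all 12 arrays in the fit (0.0218), with array weights (0.0173) and on the deposited values (0.0488), while without arrays 2 and 3 it was lower, at −0.70 (adjusted p = 0.00875). Usp18, which removes ISG15 from proteins and dampens the receptor, had 5.88, 12.33 and 12.04 against 5.48, 6.08 and 5.94. Array 1 overlapped with wild type. It passed with all arrays (4.25 ± 1.42, adjusted p = 0.0331), not without arrays 2 and 3 (0.04, adjusted p = 0.884), and not without any one of knockout arrays 2 or 3 or the wild-type arrays (adjusted p = 0.066 to 0.109). Gbp2, a guanylate-binding GTPase, had 5.28, 8.06 and 10.48 against 4.89, 4.63 and 4.61 and was at least 8.06-fold higher (adjusted p = 0.0258); without knockout array 2 or any one wild-type array the log2 difference stayed at 3.17 to 3.32 and the call was lost (adjusted p = 0.0586 to 0.0728), and without arrays 2 and 3 together the log2 difference was 0.57 (adjusted p = 0.0249). Gbp3, its relative, had 5.66, 8.68 and 8.99 against 5.21, 5.12 and 5.16, a log2 difference of 2.62 ± 0.72 (adjusted p = 0.0143). Oas1g, an oligoadenylate synthetase gene, had 5.10, 6.47 and 8.0 against 4.52, 5.17 and 4.44 and passed at 1.82 ± 0.59 (adjusted p = 0.03), but not without arrays 2 and 3 (0.39, adjusted p = 0.275), nor without any one of knockout arrays 2 and 3 and wild-type arrays 1 and 3 (adjusted p = 0.0508 to 0.094). Bst2, the tether of budding virus, had 7.01, 9.39 and 9.76 against 7.39, 7.53 and 7.72 and did not pass (adjusted p = 0.127).

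A further 5 antiviral genes were called higher without arrays 2 and 3 too. Isg15, a ubiquitin-like modifier, had log2 levels of 8.04, 10.77 and 11.42 against 5.82, 6.22 and 6.19. Its lowest knockout array, array 1, stood above every wild-type array, and the log2 difference was 4.00 ± 0.71 (adjusted p = 0.00151), or 1.96 (adjusted p = 4.72e-06) without arrays 2 and 3. Cxcl10, a chemokine that draws T cells, had 6.95, 11.47 and 11.49 against 4.35, 5.67 and 4.34, a log2 difference of 5.18 ± 1.06 (adjusted p = 0.00328), or 2.17 (adjusted p = 0.0011) without them. Oasl1, an OAS-like gene, had 6.89, 9.16 and 9.73 against 4.35, 5.10 and 4.45, a log2 difference of 3.96 ± 0.61 (adjusted p = 0.000708), or 2.26 (adjusted p = 2.77e-05) without them. Oasl2 had 6.02, 10.06 and 11.08 with wild type at background and was at least 17.4-fold higher, or at least 2.13-fold without them. Dtx3l, a ubiquitin ligase gene named after its values were seen, had 7.0, 8.32 and 9.16 against 5.73, 6.09 and 6.05, while its other kept probe gave a log2 difference of 0.12. In all 5 genes array 1 was the lowest knockout array and all knockout arrays were above wild type.

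The interferon-induced membrane proteins that block virus entry were lower instead. Ifitm1 had log2 levels of 10.83, 12.28 and 12.17 against 13.27, 13.44 and 13.27, a log2 difference of −1.57 ± 0.33 (adjusted p = 0.00379), or −2.50 (adjusted p = 3.60e-07) without arrays 2 and 3, and its other kept probes gave −5.60 and −2.04. Ifitm3 had 11.57, 12.38 and 12.96 against 13.69, 13.91 and 13.70, a log2 difference of −1.46 ± 0.29 (adjusted p = 0.00279). Ifitm2, named after its values were seen, differed by −1.29 ± 0.19. Arrays 2 and 3 were again above array 1 in these genes, yet below wild type.

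**Figure D4:**
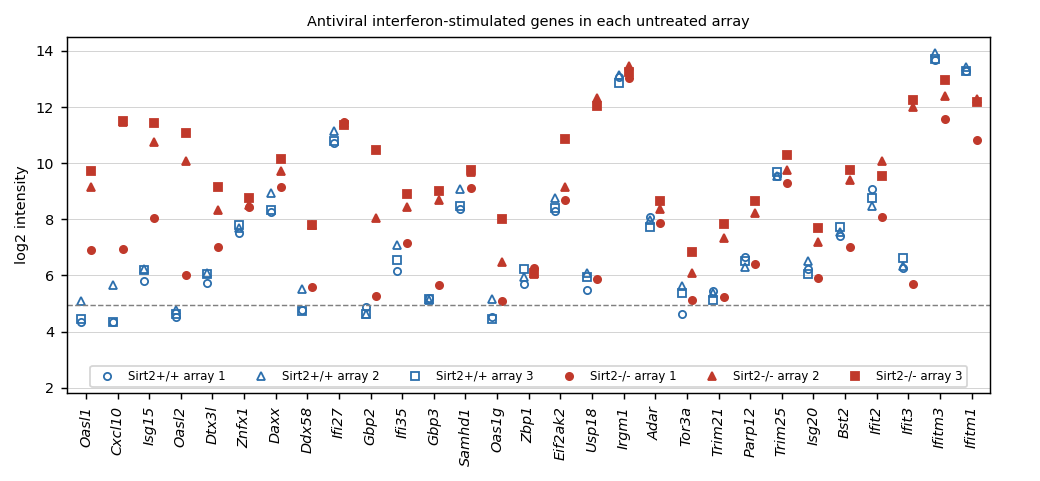
Log2 intensity of the 29 tested antiviral genes on each untreated array, wild type in open blue and knockout in filled red symbols, ordered by the difference of knockout array 1 from the wild-type mean; the dashed line is the highest, over the arrays, of each array's lowest signal among detected probes. Knockout array 1 stands above all wild-type arrays for 14 genes and arrays 2 and 3 for 26 each.

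The promoters of 4 of these genes are shown because Isg15 and Cxcl10 were above wild type on all knockout arrays, while array 1 was below wild type in Ifit3 and only slightly above it in Gbp2. The capitals mark the core letters of the interferon-stimulated response element, searched as GAAANNGAA on both strands, overlapping matches included. Windows run from 250 bases before to 50 after the RefSeq start in GRCm38.p6: Isg15 chr4:156200769-156201068 (minus strand), Cxcl10 chr5:92348840-92349139 (minus), Ifit3 chr19:34583279-34583578 (plus) and Gbp2 chr3:142620413-142620712 (plus).
Isg15: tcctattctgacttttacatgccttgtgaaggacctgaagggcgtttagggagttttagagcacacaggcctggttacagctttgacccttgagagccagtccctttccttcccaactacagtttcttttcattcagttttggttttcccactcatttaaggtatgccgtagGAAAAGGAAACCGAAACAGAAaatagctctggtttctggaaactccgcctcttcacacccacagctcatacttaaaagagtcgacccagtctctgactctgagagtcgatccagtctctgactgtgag
Cxcl10: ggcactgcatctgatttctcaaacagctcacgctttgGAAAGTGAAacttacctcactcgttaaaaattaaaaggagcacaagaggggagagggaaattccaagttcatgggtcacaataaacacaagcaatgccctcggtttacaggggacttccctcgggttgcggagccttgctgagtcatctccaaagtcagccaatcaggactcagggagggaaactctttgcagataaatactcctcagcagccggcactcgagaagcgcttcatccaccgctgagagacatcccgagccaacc
Ifit3: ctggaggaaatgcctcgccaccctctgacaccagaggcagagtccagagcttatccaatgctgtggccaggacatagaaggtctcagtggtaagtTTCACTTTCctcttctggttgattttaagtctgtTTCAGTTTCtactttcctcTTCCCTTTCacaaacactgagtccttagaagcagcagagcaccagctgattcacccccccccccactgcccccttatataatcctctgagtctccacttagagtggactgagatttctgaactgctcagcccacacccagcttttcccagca
Gbp2: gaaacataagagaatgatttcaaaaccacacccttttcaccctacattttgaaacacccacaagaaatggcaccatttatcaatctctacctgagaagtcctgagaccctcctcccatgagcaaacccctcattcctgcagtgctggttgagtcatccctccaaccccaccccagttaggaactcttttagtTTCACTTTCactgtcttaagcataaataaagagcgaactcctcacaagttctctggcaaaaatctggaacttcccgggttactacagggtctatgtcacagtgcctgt
Isg15 and Ifit3 hold 3 matches each, Cxcl10 and Gbp2 hold 1 each, and the windows of Oasl1 and Oasl2 hold 0. Of the 25 tested antiviral genes with a promoter in the table, 14 held the core (56%). Over all 27025 genes in the table, tested or not, the share was 9.76%. A match describes letters only.

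The components of the pathway differed little. Of 19 receptor, JAK-STAT and IRF genes 2 were called higher and 0 lower, with a median log2 difference of 0.14. Ptpn2, a phosphatase that acts on JAKs and STATs, had log2 levels of 7.75, 7.58 and 7.47 against 6.45, 6.46 and 6.24, a log2 difference of 1.22 ± 0.12 (adjusted p = 4.68e-05), alike in all knockout arrays. Irf1, an interferon-induced factor, had 9.91, 11 and 11.45 against 9.75, 9.96 and 9.60 and passed at 1.02 ± 0.33 (adjusted p = 0.029), with its other kept probes at 0.58 to 0.79; array 1 overlapped with wild type, and the call was lost without arrays 2 and 3 (0.14, adjusted p = 0.573) and without any one of knockout arrays 2 and 3 and wild-type arrays 1 and 3 (adjusted p = 0.0772 to 0.0924). Stat2 had 4.58, 6.69 and 7.58 against 6.16, 6.41 and 5.56. It was not detected on array 1, and its difference of 0.24 ± 0.63 (adjusted p = 0.776) turned to at least 2.17-fold lower (log2 difference −1.46, adjusted p = 0.00189) without arrays 2 and 3. Irf9 was higher by 0.97 ± 0.26 (adjusted p = 0.0118), and at 0.31 (adjusted p = 0.207) without them. Irf7 and Oas1a were not analysed here. The count of called higher members was 5 without knockout array 1 and 1 without knockout array 2 or 3 or wild-type array 3.

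Genes of MHC class I presentation were called higher in 6 of 20 tested members and lower in 0, with a median log2 difference of 0.67; 6 of the 20 passed the filter through the knockout alone. Without arrays 2 and 3 the count was 1 higher and 1 lower, with a median of 0.12, and without array 3 it was 3 higher. Tap2, a peptide transporter subunit, had log2 levels of 6.37, 7.38 and 8.18 against 4.61, 5.84 and 4.96, a log2 difference of 2.17 ± 0.44 (adjusted p = 0.00311), or 1.23 (adjusted p = 0.0144) without them. H2-K1, a classical class I heavy chain, had 7.81, 8.28 and 9.0 against 6.82, 7.50 and 6.60, a log2 difference of 1.39 ± 0.31 (adjusted p = 0.00505). Psmb10, an immunoproteasome subunit, differed by 1.29 ± 0.22. H2-Q8, a nonclassical chain, was not well above background in wild type and at least 1.61-fold higher. In each of these 4 genes array 1 was the lowest knockout array and lay above all wild-type arrays. Class I genes have near-identical relatives, so a probe may read more than one of them.

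Chemokines were called in both directions. Ccl5, which attracts T cells and monocytes, had log2 levels of 10.04, 10.24 and 10.49 against 5.64, 5.77 and 5.87, a log2 difference of 4.50 ± 0.13 (adjusted p = 1.56e-07). The knockout arrays spread over 0.44 on the log2 scale, with array 1 the lowest of them. Cxcl1, a neutrophil attractant, had 8.45, 8.27 and 8.38 against 5.25, 5.64 and 4.80, a log2 difference of 3.13 ± 0.19 (adjusted p = 4.27e-06). Lower were Il33, an alarmin, with 4.70, 5.25 and 5.88 against 9.31, 8.91 and 9.11 (−3.83 ± 0.26, adjusted p = 6.50e-06), and Cx3cl1, a membrane-bound chemokine (−2.51 ± 0.14), and Cxcl16, another one (−1.08 ± 0.13). Of 14 tested members 2 were called higher and 3 lower. Ccl2 and Ccl7, monocyte attractants named after their values were seen, did not pass with all arrays (adjusted p = 0.0738 and 0.0855). Ccl2 had 5.52, 8.69 and 7.77 against 8.87, 9.33 and 8.52, so that array 1 was far below wild type and array 2 overlapped with it. Ccl7 had 5.72, 9.05 and 9.30 against 9.55, 10.38 and 9.64. With array 1 as the only knockout array 6 members were called lower, and without array 2 there were 5.

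The same genotype difference was read in the 6 interferon-treated arrays, which share no array with the untreated ones but were normalised together with them. There 566 of the same genes were called higher (4.82%) and 910 lower (7.76%). Of the genes called higher untreated, 435 (76%) were called higher there, and of those called lower, 787 (83.9%) were called lower; seen from the treated arrays these are 76.9% and 86.5%, and 0 genes were called in opposite directions. Grb10 had a log2 difference of 7.15 and Cdkn2a of 6.59 in treated arrays, Bmp4 of 4.60, Gpr149 of −6.71 and Grem1 of −6.16. Treated wild type detected the first 3 of these on array 2 alone, where Cdkn2a read 6.42 against 4.49 and 4.42 on arrays 1 and 3. Untreated wild-type array 2 was likewise the highest of its group for these 3 genes and for Cdkn2b and Erfe, but not for Eif2s3y or Ebf3. On treated wild-type array 2 Eif2s3y read 6.78, against 4.65 and 4.32 on arrays 1 and 3. What sets these values of array 2 was not tested. The p53 targets had a median log2 difference of −0.80 in treated arrays and the HOXB genes of −3.74. The antiviral list did not keep its calls: in treated arrays 0 of 29 were called higher and 1 lower, with a median of 0.05. In the direct test of a change with treatment, described below, 0 of the 29 passed. The adjusted p of that test was 0.108 for Isg15, 0.532 for Usp18 and 0.256 for Cxcl10. A change of the genotype difference with treatment was therefore not shown for the members of this list. The treated log2 difference of Isg15 was 0.13 (adjusted p = 0.313), that of Usp18 −0.28 (adjusted p = 0.053) and that of Cxcl10 0.56 (adjusted p = 0.00388). Ccl5, in contrast, stayed apart by 3.93 (adjusted p = 2.00e-05).

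**Figure D5:**
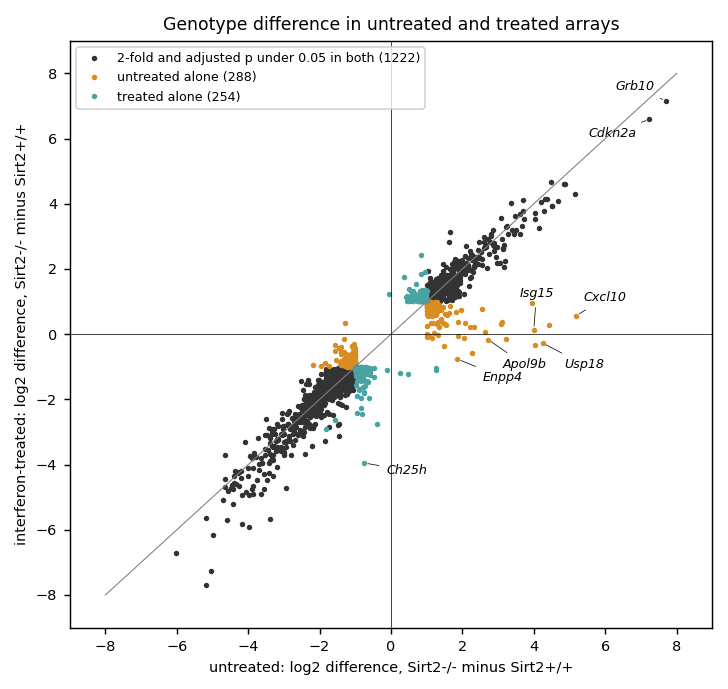
Log2 difference (knockout minus wild type) of each gene called in either comparison, untreated on the horizontal and interferon-treated on the vertical axis; the grey line marks equal differences. Most genes lie along the line from the lower left to Cdkn2a and Grb10 at the upper right, while Isg15, Cxcl10 and Usp18 lie near 0 in treated arrays.

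Whether the genotype difference changed with treatment was tested directly over the 12 arrays, and 16 genes passed (0.136%), 12 with a higher and 4 with a lower untreated than treated value. That count was 52 without replicate 1 of every group and 2 without replicate 2 or replicate 3. These genes are named after their values were seen. Gdnf, a neurotrophic factor gene, had untreated log2 levels of 9.98, 9.86 and 9.92 in the knockout and 7.87, 7.79 and 7.88 in wild type. The groups lay well apart, with a log2 difference of 2.07 ± 0.10 (adjusted p = 1.41e-06), against 0.34 in treated arrays. Enpp4, a phosphodiesterase gene, was at 7.49, 7.59 and 7.50 against 5.35, 5.91 and 5.74 untreated (1.86 ± 0.15, adjusted p = 1.47e-05), and stood at −0.77 in treated arrays. Apol9a and Apol9b, apolipoprotein L genes induced by interferon, read 7.56, 8.80 and 9.11 against 5.25, 5.40 and 5.46, and 7.16, 8.04 and 8.23 against 4.92, 5.14 and 5.19. They were above wild type on knockout array 1 as well, by untreated log2 differences of 3.12 ± 0.33 and 2.72 ± 0.25, against 0.37 and −0.17 when treated. Their sequences are close, so reads of one by the other's probe are possible. With same-numbered arrays of a genotype as a block, Apol9a did not pass the direct limma test (adjusted p = 0.0521), while Apol9b did (0.0139). Bid, a gene of the BCL2 family that promotes cell death, was higher by 1.97 ± 0.12 untreated and 0.74 treated.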

How the data were processed

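RNA of 12 mouse embryonic fibroblast samples, 3 in each of 4 groups, was read on single-colour Illumina bead arrays. The authors deposited 1 linear intensity per probe and array, with no background subtracted as far as the values show, beside a detection p-value, per the file headers. They also deposited log2 values, which equal quantile-normalized log2 intensities to within 0.00183. Scanner software, array chip and scan batch are not given in the sources used here, so no chip could be fitted as a block.

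Intensities were background-corrected by normexp from the detection p-values, with an offset of 16, quantile-normalized over the 12 arrays and put on the log2 scale (neqc in limma 3.58.1, R 4.3.3). Of several kept probes of a gene, the one with the highest mean over the 6 arrays was used, and the other kept probes of a called gene are given where their difference was under the fold limit or differed by more than 2 on the log2 scale. Genes are named from the platform annotation: 34885 of 45281 probes had 1 symbol, 18 had several and 10378 had none, and 0 symbols changed when looked up by gene ID in RefSeq. The 6 untreated arrays were fitted alone with limma's moderated test, as were the 6 treated ones. The difference of the genotype differences came from a fit of all 12 arrays. P-values were adjusted by Benjamini-Hochberg over all 11731 genes. The code was tested on simulated data. The number of arrays limits the precision.

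Named genes are the 15 most changed called genes per direction whose groups did not overlap, up to 4 called members of each list and direction, 10 antiviral genes with the largest range over knockout arrays, and a short list of genes of the pathways. Others were chosen after their values were seen, including Sirt1, Sirt3, Krt18, Krt19, Msln, Uty, Prrx1, Col1a1 and Col1a2. Members and gene lists were chosen with earlier results of these data known. Alternatives tried were the deposited values, median scaling, normalization of the untreated arrays alone, other filters, the mean over probes, all 12 arrays in the fit, array weights, the replicate block and leaving out arrays.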

Additional observations from a re-analysis of the deposited data

Results flagged for a closer look

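For the genes below the genotype difference itself differed between untreated and interferon-treated arrays, by a test over the 12 arrays with an adjusted p under 0.05. Values are the untreated minus the treated log2 difference (knockout minus wild type). It was 2.62 for Enpp4, 1.73 for Gdnf, 2.89 for Apol9b, 2.74 for Apol9a and 1.23 for Bid, whose levels the report gives. Ch25h, an oxysterol-making enzyme induced by interferon, had the value 3.2. Its untreated log2 levels were 4.41, 6.34 and 6.09 in the knockout and 6.06, 6.51 and 6.51 in wild type, which did not pass (−0.75, adjusted p = 0.175) but did with the replicate block (adjusted p = 0.0464) and without knockout arrays 2 and 3 (at least 2.71-fold lower, adjusted p = 6.40e-06), against a treated log2 difference of −3.95. The value was 2.36 for Pstpip1, 1.67 for Hoxd4, 1.66 for Dhrs9, 1.42 for Mmp10, 1.44 for Tril and 1.35 for Rnf135. It was −1.3 for Cables1, −0.86 for Rasl11b and −1.46 for Rprm. Hoxd4, Dhrs9 and Tril were at background on all knockout arrays, untreated and treated, and Mmp10 on all treated knockout arrays. The knockout's own change with treatment could therefore not be read in Hoxd4, Dhrs9, Tril and Mmp10. Rprm, a p53-induced cell cycle gene, was at least 2.39-fold higher in the untreated knockout and was also at background in all treated wild-type arrays. The remaining gene of the 16 has no symbol. Untreated, the probe used for Rnf135 gave a log2 difference of −0.61 and its other kept probes −0.14 and 0.16.

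Without untreated knockout arrays 2 and 3 the test was passed by Enpp4 (2.59), Gdnf (1.79), Apol9b (2.24), Apol9a (1.81), Ch25h (2.00), Pstpip1 (1.95), Cables1 (−1.48) and Rprm (−1.74), and not by Hoxd4 (1.48, adjusted p = 0.094), Bid (1.18, 0.08), Dhrs9 (1.38, 0.109), Mmp10 (1.09, 0.203), Rasl11b (−0.95, 0.08), Tril (1.51, 0.112) or Rnf135 (1.12, 0.309), whose values kept their direction. The limma test was also run with a block of same-numbered arrays within each genotype. There Apol9a (adjusted p = 0.0521), Rasl11b (0.0626), Rprm (0.0995) and Rnf135 (0.109) did not pass, nor did the gene with no symbol (0.0643). What sets these differences was not tested.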

How the results depend on the processing

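The deposited log2 values, from which no background was subtracted, called 242 genes higher and 468 lower in the untreated knockout, against 572 and 938, and 669 in treated arrays, against 1476. On them 3 HOXB, 2 HOXD and 2 MHC class I genes were called, against 5, 4 and 6. The other settings kept the 2 untreated counts within 1.5 times; leaving out 1 array gave 537 to 603 higher and 894 to 965 lower, and at any size 2555 to 2882 and 2440 to 2746. Whether replicate numbers pair the samples was not settled, and the main fits did not use them. Deviations of same-numbered arrays correlated at 0.1248, 0.1222 and −0.1112 between untreated genotypes. Between untreated and treated arrays they correlated at 0.055 to 0.0852 in knockout and at 0.0551 to 0.1902 in wild type. Within a genotype, only untreated knockout array 2 correlated better with a treated array of another number, at 0.059 with array 3 against 0.055. With the replicate block 578 were higher and 940 lower; of the lists described, the antiviral one had 16 called higher with the block and the chemokines 5 called lower. The 16 genes whose genotype difference differed with treatment became 51 on the deposited values, 14 with the block and 2 to 52 when 1 replicate was left out; without untreated knockout arrays 2 and 3, a setting added after the data were seen, they were 18, and with the block set within each genotype, also added, 16, of which 11 were shared. The antiviral list had 6 called higher with no filter on dim probes and 9 to 21 when 1 array was left out. Stat2 (−1.46, adjusted p = 0.00189) and Ifit3 (−0.70, adjusted p = 0.00875) turned negative without knockout arrays 2 and 3. Of 163 named gene differences, 152 kept their side of an adjusted p of 0.05 under all 16 alternatives run, with no passing difference reversed. The 2-fold limit was not part of that count, so calls could still change. The others were Usp18, Irf1, Stat2, Irf9, Ifit3, Gbp2, Gbp3, Oas1g, Bst2, Ch25h and Rnf135. Except where fewer arrays or other genes tested set the change, the cause was not tested. Genes at background in 1 genotype have only a bound on their fold.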

Other observations

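Markers of neural cells gave values in both directions. Map2, a microtubule-associated protein of neurons, had log2 levels of 9.58, 9.43 and 9.85 in the untreated knockout and 8.24, 7.99 and 8.28 in wild type, a log2 difference of 1.45 ± 0.14 (limma, adjusted p = 4.37e-05), while its other kept probe gave 0.46. Nes, an intermediate filament of progenitor cells, differed by 1.06 ± 0.14 (adjusted p = 0.00033). Sox2, a stem cell factor, had 5.56, 5.33 and 5.26 against 7.38, 6.99 and 6.79, a log2 difference of −1.67 ± 0.16 (adjusted p = 4.42e-05). Of 11 neural markers on the array, 5 were at background on all 6 arrays, with Gfap and Syp among them. The summed neural intensity was 2410 to 2700 in the knockout and 1226 to 1463 in wild type. These genes were chosen after their values were seen.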
